A study of Chlamydomonas reinhardtii with 9 samples.

Results

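Carbonic anhydrases CAH1, CAH2, CAH3, CAH4, CAH5, CAH7 and CAH8 of Chlamydomonas reinhardtii, a unicellular green alga, were followed across methylmercury exposure. The loci were chosen by locus number as members of this enzyme family, by a rule that uses no measured value but was set with earlier results of these data known: Cre04.g223100 (CAH1), Cre04.g223050 (CAH2), Cre09.g415700 (CAH3), Cre05.g248400 (CAH4), Cre05.g248450 (CAH5), Cre13.g607350 (CAH7) and Cre09.g405750 (CAH8). All 7 were among the 17737 identifiers of the count files, and all 7 were among the 14778 with enough reads to be tested. The deposited files list identifiers without names, so the names follow the locus numbers by which the loci were chosen and were not checked against a table of names. Wild-type cells of strain CPCC11 spent 2 h in an artificial freshwater medium as control, with 0.05 nM or with 0.5 nM methylmercury, an organic mercury compound with affinity for thiols. Each of the 3 groups had 3 biological replicates, and both doses were compared with the same controls. By their sample numbers, the 0.05 nM libraries were entered apart from the rest. Their labels describe the source in other words and alone name a sequencer. Whether they were also run apart is not given. Any effect of such a difference cannot be told apart from the dose itself.

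Carbonic anhydrases catalyse the interconversion of CO2 and bicarbonate. In this alga they work with bicarbonate transporters and the pyrenoid, a Rubisco-rich body in the chloroplast, in a carbon concentrating mechanism that is known to be induced when CO2 is scarce. CAH1 and CAH2 are alpha-type enzymes of the periplasm, the space between plasma membrane and cell wall, and CAH8 is a beta-type enzyme there. CAH3 is an alpha-type enzyme of the thylakoid lumen, where it is known to help turn bicarbonate into CO2 for fixation. CAH4 and CAH5 are nearly identical beta-type enzymes of mitochondria, and CAH7 is a further beta-type enzyme. RNA levels do not show where a protein lies, so these places are background.

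The libraries held 15138888 to 20433375 reads assigned to genes. Levels are given as CPM (counts scaled to a common library size and corrected by TMM, which allows for differences in composition) that are not corrected for gene length, so they were compared between libraries and not between genes. In bulk RNA, more RNA in each cell and more cells with that RNA cannot be told apart. On the second principal component of log2 CPM, which held 12.4% of the variance, replicate 1 of each group scored 17.0 to 36.5. The other libraries scored -19.0 to -3.22 there. The 0.5 nM replicate 3 library lay apart on the third principal component, which held 5.92% of the variance. Its score was 29.8 against -14.5 to 6.54 for the other libraries. It held the highest 0.5 nM value of 5 of the 7 loci. Control replicate 1 held the lowest control value of 6 of the 7.

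The mitochondrial pair CAH4 and CAH5 rose most among the 7 loci at both doses, and CAH3 of the thylakoid rose by 2.47-fold and 2.71-fold. CAH1 rose less, CAH2 fell at both doses, CAH8 passed the test at the higher dose but not at the lower, and CAH7 passed at neither. At 0.05 nM 4 of the 7 loci rose and 1 fell, where 27.2% of all tested genes rose and 25% fell. At 0.5 nM 5 rose and 1 fell, where 31.6% of all tested genes rose and 28.7% fell. The median log2 change of the 7 loci was 0.51 at 0.05 nM and 1.27 at 0.5 nM, against 0.05 and 0.07 over all tested genes. Library order set all 3 treated libraries above all 3 controls for 5 loci at each dose and below them for 1, where 31.8% and 28.3% of all genes did so at 0.05 nM and 33.4% and 29.7% at 0.5 nM. Scaling by library totals alone moved the log2 change of the median gene up by 0.26 and 0.29, and the calls over all genes divided differently. It gave 5905 higher and 2080 lower genes at 0.05 nM in place of 4015 and 3699, and 6707 and 2557 at 0.5 nM in place of 4671 and 4234. Directions here are therefore relative to the composition-corrected scale.

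**Figure D1:**
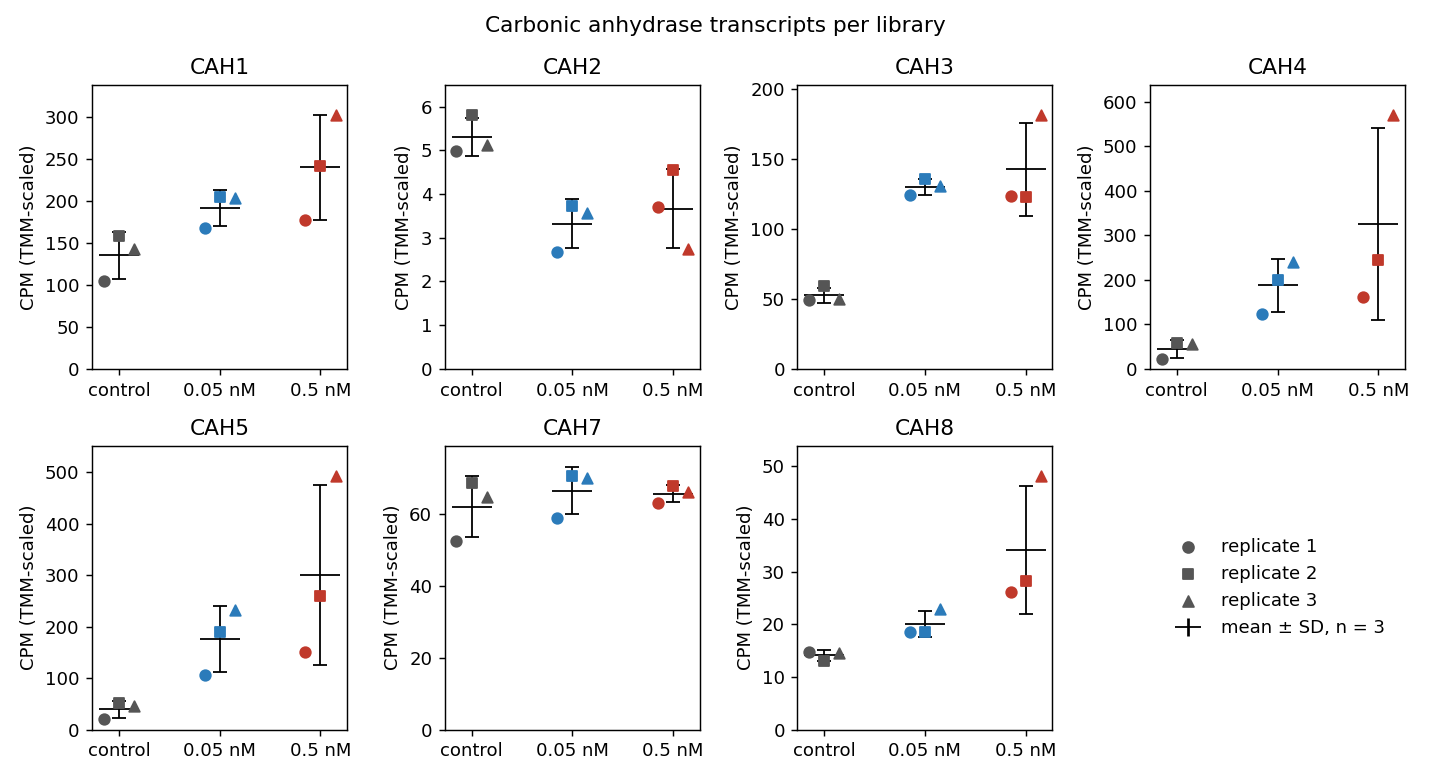
CPM of each carbonic anhydrase locus (y axis, linear from 0, its own scale in each panel) in the control, 0.05 nM and 0.5 nM methylmercury groups, with 1 point per library and the mean and SD of 3. CAH1, CAH3, CAH4, CAH5 and CAH8 have every treated library above every control, CAH2 has every treated library below, and CAH7 overlaps.

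CAH1, known as the main periplasmic carbonic anhydrase of cells short of CO2, rose modestly. In control replicates 1, 2 and 3 it stood at 105, 158 and 142 CPM. At 0.05 nM the values were 168, 204 and 203 CPM. At 0.5 nM they were 177, 241 and 302 CPM. The treated libraries all lay above the controls, and the doses overlapped each other. The group means were 135 ± 27.6, 192 ± 21.0 and 240.3 ± 62.4 CPM (SD, n = 3 each). The log2 change was 0.51 ± 0.195 at 0.05 nM (SE; edgeR adjusted p = 0.0468) and 0.83 ± 0.195 at 0.5 nM (edgeR adjusted p = 0.00327). The call at 0.5 nM stood under each of the 15 alternatives run. The call at 0.05 nM was lost with 1 of several libraries left out, with edgeR adjusted p = 0.134 without control replicate 1, 0.0736 without control replicate 3, 0.12 and 0.124 without 0.05 nM replicates 2 and 3, and 0.0601 without 0.5 nM replicate 2. It was lost with DESeq2 (adjusted p = 0.0523) and with DESeq2 size factors in edgeR (adjusted p = 0.0707) as well, in 7 of the 15 alternatives in all. Its adjusted p ran from 0.000217, with replicate number as a block, to 0.134.

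CAH2, a periplasmic enzyme closely similar to CAH1, moved the other way on few reads, 41 to 96 per library. The controls held 4.98, 5.80 and 5.12 CPM in replicates 1, 2 and 3. The 0.05 nM libraries held 2.68, 3.74 and 3.56 CPM. The 0.5 nM libraries held 3.71, 4.56 and 2.73 CPM. Every treated library lay below every control. CAH2 fell by 0.67 on the log2 scale at 0.05 nM (SE 0.199; edgeR adjusted p = 0.0146) and fell by 0.51 at 0.5 nM (SE 0.197; edgeR adjusted p = 0.0403). The call at 0.05 nM was lost with library totals alone (adjusted p = 0.138) and without 0.05 nM replicate 1 (adjusted p = 0.0602), in a range of 0.00239 to 0.138. The call at 0.5 nM was lost in 7 of the 15 alternatives, in a range of 0.011 to 0.421. Among these were the fits without control replicate 2 (adjusted p = 0.114), control replicate 3 (0.0652), 0.5 nM replicate 1 (0.0843), 0.5 nM replicate 3 (0.124) or 0.05 nM replicate 3 (0.0536).

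CAH8, the periplasmic beta-type enzyme, was higher at the higher dose. Its control libraries stood close together at 14.7, 13.0 and 14.6 CPM. The values were 18.6, 18.5 and 22.8 CPM at 0.05 nM and 26.2, 28.3 and 48.1 CPM at 0.5 nM. The 3 groups did not overlap at any step, so CAH8 was the only one of the 7 loci whose 0.5 nM libraries all lay above its 0.05 nM libraries, as did 8.6% of all tested genes. The log2 change was 1.27 ± 0.207 at 0.5 nM, a 2.41-fold rise (SE; edgeR adjusted p = 0.000284), which stood in each alternative. At 0.05 nM it was 0.50 ± 0.209 and did not pass (edgeR adjusted p = 0.0629), with a 95% interval of 0.04 to 0.96. With replicate number as a block it passed at 0.05 nM too (edgeR adjusted p = 0.00565). It also passed without 0.5 nM replicate 1 (0.0382) or replicate 3 (0.00478), within 0.00405 to 0.194 over the alternatives.

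CAH3, the enzyme of the thylakoid lumen, rose at both doses. It stood at 49.2, 59.0 and 49.9 CPM in the controls. At 0.05 nM it stood at 124, 136 and 131 CPM. At 0.5 nM it stood at 124, 123 and 181 CPM. The doses overlapped and only the 0.5 nM replicate 3 library lay above the 0.05 nM range. The group means were 52.7 ± 5.45, 130.2 ± 5.84 and 143 ± 33.4 CPM (SD, n = 3 each). The log2 change was 1.31 ± 0.15 at 0.05 nM (SE; edgeR adjusted p = 3.04e-05) and 1.44 ± 0.15 at 0.5 nM (edgeR adjusted p = 9.57e-06). Both calls stood under all 15 alternatives, at 1.25 to 1.56 for the lower dose and 1.23 to 1.72 for the higher. CAH3 lay above 95.3% of all tested genes in log2 change at 0.05 nM and above 94.6% at 0.5 nM.

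CAH4 and CAH5, the mitochondrial enzymes, had the largest log2 changes and the widest spread between replicates of the 7. CAH4 stood at 22.5, 58.2 and 55.8 CPM in control replicates 1, 2 and 3. It reached 122, 199 and 241 CPM at 0.05 nM. It reached 161, 245 and 569.6 CPM at 0.5 nM. All treated libraries lay above all controls, while the doses overlapped and the coefficient of variation at 0.5 nM was 66.3%. The log2 change was 2.05 ± 0.562 at 0.05 nM, or 4.14-fold (SE; edgeR adjusted p = 0.0168). At 0.5 nM it was 2.84 ± 0.577, or 7.17-fold (edgeR adjusted p = 0.00335). Without control replicate 1, which held the lowest value, the change at 0.05 nM was 1.71 and did not pass (edgeR adjusted p = 0.0557, in a range of 0.000322 to 0.0557). Without 0.5 nM replicate 3, the highest, the change at 0.5 nM was 2.16, or 4.48-fold, and still passed (edgeR adjusted p = 0.0043, in a range of 8.49e-06 to 0.0138).

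CAH5 gave almost the same numbers library by library. Its controls held 20.5, 51.4 and 45.8 CPM. The 0.05 nM libraries held 107, 190.1 and 233 CPM, and the 0.5 nM libraries 151, 259 and 493 CPM. As for CAH4, replicate 1 was the lowest library in each of the 3 groups. The log2 change was 2.18 ± 0.534 at 0.05 nM, or 4.53-fold (SE; edgeR adjusted p = 0.00977). At 0.5 nM it was 2.95 ± 0.548, or 7.71-fold (edgeR adjusted p = 0.00199). Both calls stood in every alternative. In log2 change CAH5 lay above 99.4% of tested genes at 0.05 nM and above 99.8% at 0.5 nM.

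CAH7, the further beta-type enzyme, changed least. It stood at 52.6, 68.8 and 64.9 CPM in the controls, at 59.0, 70.7 and 70.2 CPM at 0.05 nM, and at 63.1, 67.9 and 66.4 CPM at 0.5 nM. The 3 groups overlapped. The log2 change was 0.10 at 0.05 nM with a 95% interval of -0.15 to 0.36 (edgeR adjusted p = 0.482). At 0.5 nM it was 0.08 with an interval of -0.17 to 0.34 (edgeR adjusted p = 0.55). With library totals alone CAH7 passed as higher at both doses, by 0.37 (adjusted p = 0.0198, in a range of 0.0198 to 0.932) and 0.38 (adjusted p = 0.0134, in a range of 0.0134 to 0.862). That scaling raised the median gene by 0.26 and 0.29.

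**Figure D2:**
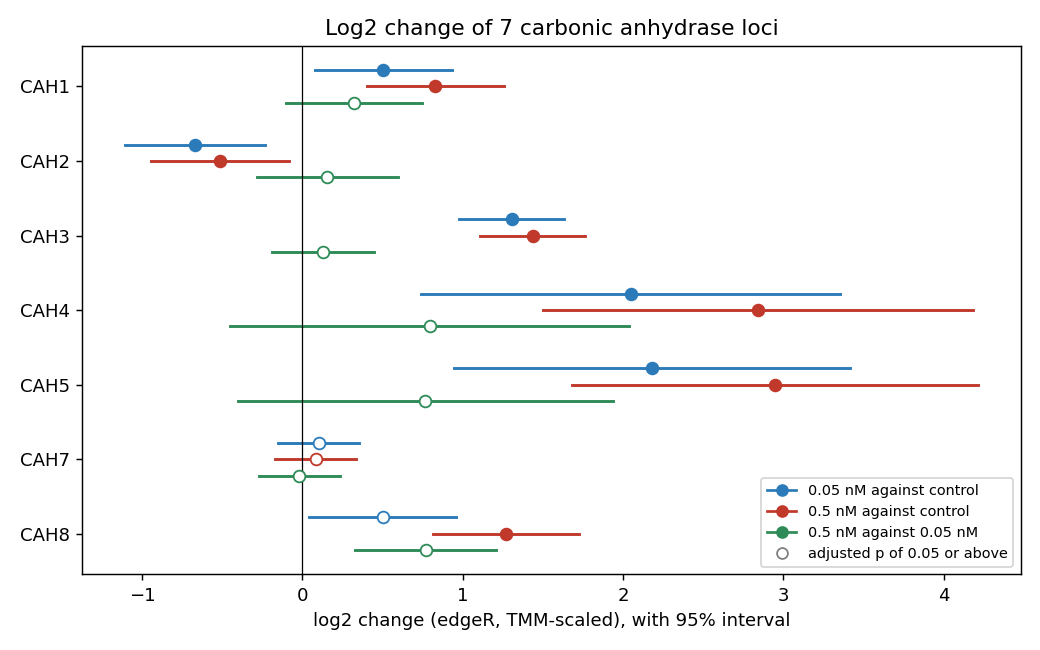
Log2 change of the 7 loci (x axis) with 95% intervals from edgeR, for each dose against control and for 0.5 nM against 0.05 nM, with open points where the adjusted p was 0.05 or above. CAH4 and CAH5 have the largest changes, 2.05 to 2.95 against control, and the widest intervals, while no locus has a filled point between the doses.

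Between the doses 0 of the 7 loci passed in edgeR's test, where 0.0135% of all tested genes were higher at 0.5 nM and 0.819% lower. The log2 difference was positive for 6 of the 7 loci, with a median of 0.32 against 0.01 over all genes. The share of all genes with a positive difference was not counted. The CAH7 difference of -0.018 lay above 43.5% of all tested genes. Without 0.5 nM replicate 3 the median of the 7 loci was 0.12 against 0.007 over all genes, and CAH3 stood at -0.082. At an unadjusted p under 0.05 there was 1 of 7 loci, CAH8, where 13.5% of all tested genes had one. DESeq2 called CAH8 higher (adjusted p = 0.0103). The difference for CAH8 was 0.77 ± 0.201 (SE; edgeR adjusted p = 0.0958), with a 95% interval of 0.33 to 1.21. It passed with replicate number as a block (adjusted p = 0.00137, in a range of 0.00137 to 0.385). For CAH5 the difference was 0.77 ± 0.505 (edgeR adjusted p = 0.6), which passed with the block at 0.69 ± 0.159 (adjusted p = 0.023, in a range of 0.023 to 0.966). With the block 1.94% of all genes were higher at 0.5 nM and 7.04% lower.

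For CAH4 the difference between doses was 0.79 ± 0.536 (SE; edgeR adjusted p = 0.611), with a 95% interval of -0.45 to 2.04, and it did not pass with the block (adjusted p = 0.153). Without 0.5 nM replicate 3 the differences of CAH4, CAH5 and CAH8 were 0.11, 0.21 and 0.44, none of them past the threshold (edgeR adjusted p = 0.985, 0.966 and 0.23). For CAH1, CAH2, CAH3 and CAH7 the 95% intervals of the difference between doses were -0.10 to 0.75, -0.28 to 0.60, -0.19 to 0.45 and -0.27 to 0.23. The data therefore bound a step between the doses for CAH7 more tightly than for the mitochondrial pair.

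For the mitochondrial loci, the replicate 1 library was the lowest of its group in all 3 groups. The labels give no pairing by number, and over all genes numbers 2 and 3 were not clearly matched across groups. Taking each treated library against the control of its own number, the log2 change of CAH5 was 2.38, 1.89 and 2.35 at 0.05 nM for numbers 1, 2 and 3. At 0.5 nM it was 2.87, 2.33 and 3.42. With the block the standard error of CAH5 fell from 0.534 to 0.173 at 0.05 nM and that of CAH4 from 0.562 to 0.252. From 0.05 nM to 0.5 nM, the steps within numbers were 0.08 to 0.57 for CAH1 and 0.30 to 1.24 for CAH4. They were 0.45 to 1.08 for CAH5 and 0.49 to 1.07 for CAH8. The steps went both ways for CAH2 (-0.366 to 0.452), CAH3 (-0.141 to 0.473) and CAH7 (-0.081 to 0.097). Such steps were not examined over all tested genes. Number 3 gave the largest of the 3 steps for CAH1, CAH3, CAH4, CAH5 and CAH8, and the lowest for CAH2 and CAH7.

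**Figure D3:**
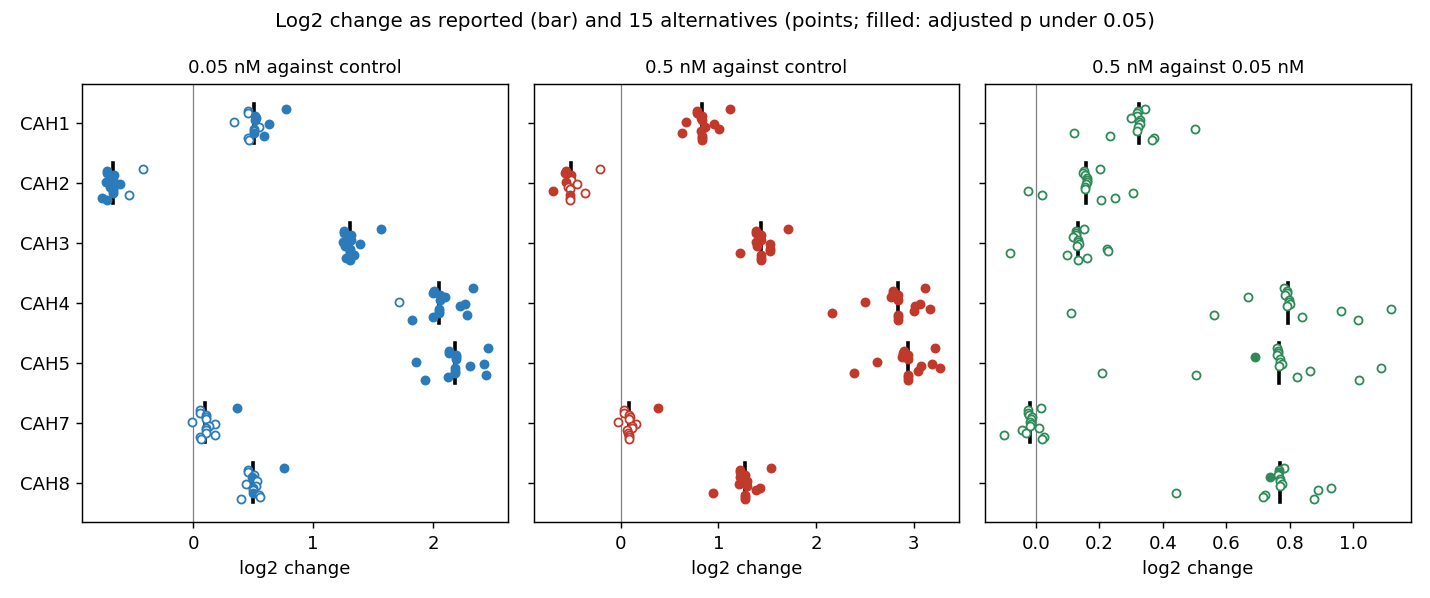
Log2 change of each locus (x axis) as reported (black bar) and under 15 alternatives (points, filled where the adjusted p was under 0.05), with 1 panel per comparison. Against control, the calls of CAH3 and CAH5 at both doses and of CAH1, CAH4 and CAH8 at 0.5 nM hold throughout. The calls of CAH1 and CAH4 at 0.05 nM and those of CAH2 at both doses are lost in at least 1 alternative. CAH8 at 0.05 nM passes in 5 alternatives and CAH7 in 1 at each dose. Between the doses 1 point of CAH5 and 2 of CAH8 pass.

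CAH4 and CAH5 lie next to each other in the gene order of the RefSeq assembly, and so do CAH1 and CAH2. Reads that aligned at more than 1 place were not assigned to a gene, so near-identical copies are measured through the parts in which they differ, and a split of shared reads between them is uncertain. Such alignments came to 43.7% of the assigned count in control replicate 3 and were at least 19.0% in every library, and their part in these results was not tested. The ratio of CAH4 to CAH5 counts lay between 0.946 and 1.22 in all 9 libraries. Its mean was 1.15 ± 0.0607 in controls, 1.08 ± 0.0626 under the lower dose and 1.06 ± 0.106 under the higher one (SD, n = 3 each). The pair therefore rose in near-constant proportion while its summed level ran from 43.0 to 1062 CPM. The ratio of CAH1 to CAH2 counts moved, from 21.0 to 27.8 in the controls to 54.7 to 62.5 at 0.05 nM and 47.8 to 111 at 0.5 nM. That treated and control libraries do not overlap in this ratio already follows from CAH1 lying above and CAH2 below all controls.

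**Figure D4:**
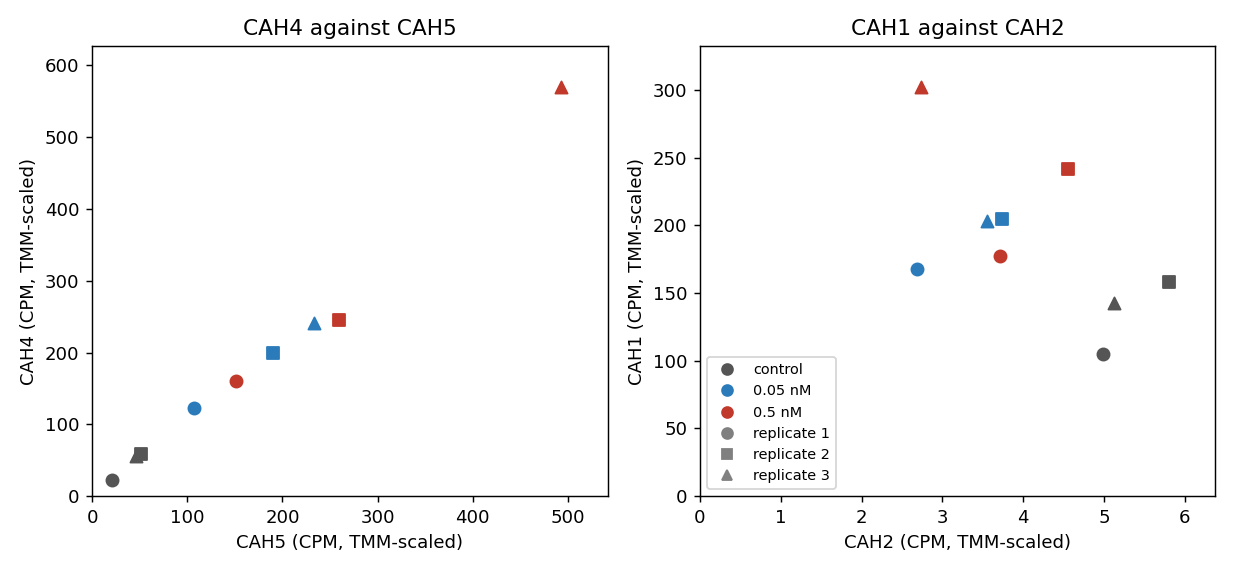
CPM of CAH4 against CAH5 (left) and of CAH1 against CAH2 (right) in the 9 libraries, by group (colour) and replicate number (shape), on linear axes from 0. CAH4 and CAH5 lie along a line through all groups, whereas the treated libraries have more CAH1 and less CAH2 than the controls.

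CAH1 and CAH2 also lie between loci of the carbon concentrating list described next. A run of 12 neighbouring loci, 10 of them tested, was cut to begin and end with a list locus. The place of list loci at its ends was therefore set beforehand. The run held 4 list loci, and the pair stood in the middle. The 4 list loci rose by 2.16 to 3.18 at 0.05 nM and by 2.62 to 3.86 at 0.5 nM on the log2 scale. Of the 4 other tested loci in the run, 1 passed at each dose, with log2 changes of -0.23 to 0.76 over the 4 at 0.05 nM and -0.29 to 0.71 at 0.5 nM. Around all 7 carbonic anhydrase loci, 13 of the 20 distinct other loci within 2 places were tested. Of these 13, 4 were higher and 3 lower at 0.05 nM, where 27.2% and 25% of all tested genes were. At 0.5 nM 4 of the 13 were higher and 2 lower, where 31.6% and 28.7% of all tested genes were.

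**Figure D5:**
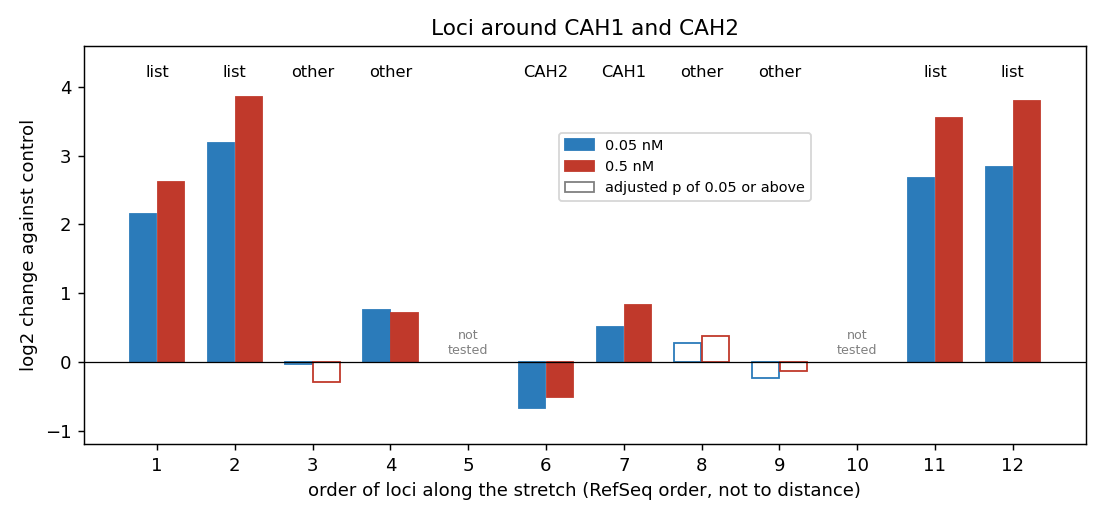
Log2 change against control (y axis) of 12 neighbouring loci around CAH1 and CAH2 (x axis, order in the RefSeq assembly, not distance), at 0.05 nM and 0.5 nM, open where the adjusted p was 0.05 or above. The run was cut to begin and end with loci of the carbon concentrating list. The 4 list loci rise by 2.16 to 3.86, whereas CAH1 rises by 0.51 and 0.83 and CAH2 falls.

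Other loci of the same mechanism were taken from a list of 17 recalled locus numbers for bicarbonate uptake, its regulators and the pyrenoid, which no table used here could check and which was drawn up with earlier results of these data known. Of these, 14 were in the count files and 13 were tested. At each dose 12 of the 13 rose and 0 fell, by 1.26 to 3.92 at 0.05 nM and by 1.41 to 5.87 at 0.5 nM, with medians of 2.48 and 2.93 on the log2 scale. Of all tested genes 27.2% rose at 0.05 nM and 31.6% at 0.5 nM, with medians of 0.05 and 0.07. At 0.5 nM the CAH4 and CAH5 changes of 2.84 and 2.95 lay near that median and the CAH1 change of 0.83 lay below the whole range of the risen loci. The largest rises of the list at 0.5 nM were those of Cre03.g162800, from 1.05 ± 0.102 to 61.4 ± 56.8 CPM, and Cre06.g309000, from 49.8 ± 14.6 to 773 ± 209 CPM (SD, n = 3 each). A locus number recalled for 1 more carbonic anhydrase, Cre12.g485050, was lower at 0.5 nM, at 526 ± 77.7 against 819 ± 117 CPM in the controls, a log2 change of -0.64 (edgeR adjusted p = 0.00417). At 0.05 nM it stood at 652 ± 92.6 CPM and did not pass (edgeR adjusted p = 0.0979).

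Among the 14778 tested genes, CAH4 and CAH5 were each the gene most like the other in log2 CPM over the 9 libraries, with a Pearson r of 0.998. CAH1 had an r of 0.972 with CAH4, which ranked 13 among the genes most like CAH1. Outside the 7 loci, the genes most like CAH1 were Cre06.g276450 (r of 0.9898) and g3153 (r of 0.988). Their mean levels were 0.971 and 57.5 CPM, so the first was measured on few reads. CAH2 had negative r with each of the other 6 loci, from -0.825 with CAH3 to -0.01 with CAH7. These values describe 9 libraries in which treated and control samples stand apart, and 325 genes had an r above 0.9 with CAH1 and 1699 with CAH3.

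In the authors' deposited table, made with their own test with tagwise dispersions, 6 of the 7 loci passed an FDR-corrected p of 0.05 at 0.05 nM and 5 at 0.5 nM. In the authors' deposited table as a whole, 41.2% and 48.6% of 17737 genes passed. That base includes genes with too few reads to be tested here, unlike the other shares given. In the authors' deposited table CAH8 passed at 0.05 nM (1.41-fold, FDR-corrected p = 0.0337), and CAH2 did not pass at 0.5 nM (signed fold of -1.43, FDR-corrected p = 0.0666). The authors' deposited table gave 7.15-fold for CAH4 and 7.68-fold for CAH5 at 0.5 nM.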

How the data were processed

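Raw read counts per gene were deposited by the authors, 1 file per library. Per the submitters' processing notes, TopHat2 and HTSeq were used. No version, build, annotation or strand setting is given in the sources used here. Overlapping genes may share reads. HTSeq's categories of unassigned reads were left out (reads outside gene models 1.04% to 1.26% of the assigned count). The authors deposited a table that repeats the counts of each library (9 of 9 columns equal). It also holds their signed fold, a score per the file headers, and p-values, given per comparison and not per library.

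Counts were fitted in R 4.3.3 with edgeR 4.0.16 (filterByExpr, TMM, robust quasi-likelihood, group as the only term, 9 libraries, 6 residual degrees of freedom), two-sided, adjusted by Benjamini-Hochberg over all 14778 genes, threshold 0.05. The test was also run on simulated counts drawn independently for each library. Those counts hold no effect shared by replicate number, so the run does not show how the test behaves under such an effect. Standard errors come from the fold change and F. log2 CPM (prior count 2) served correlations. Alternatives were DESeq2 1.42.0, other scalings, no filter, a replicate block, fits of 2 groups, and each library left out. Deviations from the group mean had a positive r between same-numbered libraries in all 9 comparisons across groups (0.104 to 0.63 over genes, against a minimum of 0.1). The deviations within a group cancel out, so a shared deviation of number 1 alone also raises r among numbers 2 and 3. The 9 positive values therefore do not show a pairing of numbers 2 and 3. The block is given beside results it changes, and it comes from the data, not the labels. Libraries with different numbers reached -0.491 to 0.371. Control replicate 3 correlated more with replicate 2 than with replicate 3 of each dose (0.371 against 0.21 at 0.05 nM, 0.337 against 0.104 at 0.5 nM), as did 0.05 nM replicate 3 with 0.5 nM replicate 2 (0.153 against 0.147), so only number 1 stood apart clearly. A RefSeq gene table of assembly version 5.5 gave only gene order. It matched all 7 loci and 11713 of the 17737 identifiers. All 7 loci were named; genes most alike were the 2 with the highest r, printed for CAH1, which had the highest mean CPM, with no correction for length; of the list, the 2 largest rises and falls at 0.5 nM. The rule for members uses no measured value, but members and lists were chosen with earlier results of these data known.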

Additional observations from a re-analysis of the deposited data

How the results depend on the processing

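Across the 15 alternatives, CAH3 and CAH5 kept their calls at both doses, and CAH1, CAH4 and CAH8 kept theirs at 0.5 nM. With library totals alone 0 carbonic anhydrase loci fell at either dose, 2080 and 2557 genes were lower at 0.05 and 0.5 nM, and 0 higher and 0 lower genes differed between doses in edgeR's test (1530 at an unadjusted p under 0.05). At 0.5 nM no locus fell (0) when only the 2 groups compared were fitted, which gave 53 lower genes between doses. Between doses DESeq2 called 1 locus, 47 higher and 596 lower genes, against 2 and 121 as reported, and the replicate block called 2 loci, 287 and 1041. The block ended no call and otherwise changed only that of CAH8 at 0.05 nM.

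With 1 library left out, 2 to 5 loci rose and 0 to 1 fell at 0.05 nM, where 3239 to 4074 of all genes rose and 3150 to 3765 fell, with the 2 coming from the fit without control replicate 1. At 0.5 nM 5 rose in each fit and 0 to 1 fell, where 4163 to 4704 of all genes rose and 3949 to 4260 fell. Between doses 0 to 20 higher and 0 to 363 lower genes were called, and in the 7 fits with 0 calls 1254 to 2020 genes had an unadjusted p under 0.05.

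Directions reversed only for values that had not passed. With 1 library left out CAH7 ran from -0.013 to 0.18 at 0.05 nM and from -0.030 to 0.16 at 0.5 nM, negative without control replicate 1. Between doses CAH2 ran from -0.024 (without 0.5 nM replicate 2) to 0.31, CAH3 from -0.082 (without 0.5 nM replicate 3) to 0.23, and CAH7 from -0.099 to 0.025. CAH7 was 0.016 between doses with library totals. The cause was not tested. CAH2 had the fewest reads of the loci, 41 to 96 per library.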
